A study of Mus musculus with 24 samples.

Results

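The expression of 10 genes of triglyceride synthesis and lipolysis was examined in 4 tissues (liver, brain, heart, skeletal muscle) of WT mice and of mice homozygous for a Rap1 knock-in allele (Rap1 KI/KI). The genes are Gpam, Agpat2, Lpin1, Dgat1 and Dgat2, which build triglyceride, Pnpla2, Lipe and Mgll, which break it down, and Acsl1 and Acsl5, which activate fatty acids. They were chosen by name, not by a threshold on their levels. All probes on the array whose accession belongs to them were taken, which gave 17 probes for the 10 genes, out of 55681 probes on each array and 21364 genes that could be named. The Rap1 allele carries the I312R change in RAP1, a protein that binds telomeres through TRF2. It was introduced into the germline with CRISPR/Cas9, so every tissue of the Rap1 KI/KI mice carried it, and the mice had been back-crossed to C57BL6 (C57BL/6N in the methods). A point mutation of this kind is not checked by an expression probe. All mice were males. There were 3 WT mice, called WT1 to WT3 here, and 3 Rap1 KI/KI mice, called KI1 to KI3. The age was 5 months for WT1 and KI1 and 2 months for the remaining 4 mice. Each mouse gave all 4 tissues, and each RNA was hybridized to its own 1-color Agilent array, 24 arrays in all.

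Triglyceride is assembled on a glycerol backbone. GPAM attaches a fatty acid to glycerol phosphate, AGPAT2 adds the next one to give phosphatidic acid, LPIN1 removes the phosphate to give diacylglycerol, and DGAT1 and DGAT2 add the last fatty acid. In lipolysis, PNPLA2 (also called ATGL) removes a fatty acid from triglyceride, LIPE (hormone-sensitive lipase) mainly cleaves diacylglycerol, and MGLL releases the last fatty acid from monoacylglycerol. MGLL in the brain also degrades an endocannabinoid. ACSL1 and ACSL5 couple fatty acids to coenzyme A, which synthesis and oxidation both need. The liver stores and exports triglyceride, muscle and heart oxidize fatty acids, and fat cells carry much of the machinery of both storage and lipolysis.

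The promoters of Agpat2, Mgll and Pnpla2 are shown because Agpat2 and Mgll had the widest and the smallest span between tissues, and Pnpla2 the largest share of its variation between tissues. The 250 bases before the annotated start are written 5′ to 3′ on the strand of the gene (RefSeq, GRCm38.p6). Capitals mark matches, on either strand, to the E-box, GC box, CCAAT box or TATA box, which are spelled out with their counts after the sequences.

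Agpat2, chr2:26604418-26604667, minus strand: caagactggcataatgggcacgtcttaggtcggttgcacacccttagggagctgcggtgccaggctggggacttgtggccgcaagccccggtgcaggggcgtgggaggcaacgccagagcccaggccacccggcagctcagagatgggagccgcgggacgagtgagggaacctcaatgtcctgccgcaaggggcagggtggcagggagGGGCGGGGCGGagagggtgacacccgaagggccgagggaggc

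Mgll, chr6:88724162-88724411, plus strand: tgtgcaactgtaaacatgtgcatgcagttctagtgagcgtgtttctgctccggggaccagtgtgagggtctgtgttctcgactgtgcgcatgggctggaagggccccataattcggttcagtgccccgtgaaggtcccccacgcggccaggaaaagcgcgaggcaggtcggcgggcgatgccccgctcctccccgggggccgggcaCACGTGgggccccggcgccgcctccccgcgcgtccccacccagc

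Pnpla2, chr7:141454938-141455187, plus strand: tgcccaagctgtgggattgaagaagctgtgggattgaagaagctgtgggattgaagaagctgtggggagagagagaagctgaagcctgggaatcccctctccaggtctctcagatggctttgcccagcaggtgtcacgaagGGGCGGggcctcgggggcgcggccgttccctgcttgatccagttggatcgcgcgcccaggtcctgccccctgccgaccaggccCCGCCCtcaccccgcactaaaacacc

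The Agpat2 promoter holds 2 overlapping GC boxes, which begin 42 and 37 bases before the start. An E-box lies 44 bases before the start of Mgll shown here, and this window lies within the annotated gene Gm26588. The other annotated start of Mgll has no E-box and has a GC box at 121 bases. Pnpla2 has GC boxes at 109 and 26 bases. Of the 10 genes, 8 had a promoter in the RefSeq table, with 12 starts. The GC box GGGCGG was found at 6 of the 12 starts and in 32.7% of the 32851 promoters in the table. The E-box CACGTG was at 2 of the 12 starts, a start of Lipe and a start of Mgll, and in 6.02% of all promoters. The CCAAT box CCAAT was at 3 starts (33.8% of all promoters) and the TATA box TATAAA at none (12.4%). These matches describe letters only and say nothing of binding.

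Levels are given as log2 intensity relative to the 75th percentile of the same array, so a level of 0 is that percentile and a difference of 1 is 2-fold. Where a gene had several probes, the probe with the highest mean level over the 24 arrays represents it. The 10 representative probes were well above background on all 24 arrays. Because probes differ in brightness, levels are compared between samples for the same gene, never between genes. The 75th percentile of intensity ran from 470.7 to 1389 over the arrays, and 56.5% to 72.7% of the probes on an array were well above background. The tissue labels were checked with lists of marker genes, as the sum of their linear levels. Hepatocyte genes summed to 1311 to 2597 in the liver and at most 123 elsewhere, and neuron genes to 199 to 346 in the brain and at most 52.8 elsewhere. Cardiomyocyte genes summed to 1118 to 2282 in the heart and at most 5.81 elsewhere, and skeletal muscle fibre genes to 2809 to 3691 in muscle and at most 189 elsewhere. Some samples stood apart by markers of other cells. The fat cell list (Adipoq, Plin1, Cidec, Cfd, Lep, Retn, Fabp4 and Pparg) summed to 392 and 678 in the hearts of KI1 and KI3 against 233 to 288 in the other 4 hearts. Fabp4 weighed most in this sum in every heart, at log2 levels of 7.63 to 8.17. The WT1 heart was the lowest for Adipoq (-4.23), Plin1 (-4.98), Cidec (-3.74), Cfd (-0.12) and Retn (-3.74), which the sum does not show. It was not the lowest for Fabp4 and Pparg. In muscle the sum of the list ran from 196 in WT2 to 1479 in KI2. In whole-tissue RNA, fewer cells of a type cannot be told apart from less RNA per cell.

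Tissue accounted for most of the variation of every one of the 10 genes. The share of the sum of squares over the 24 arrays that lay between tissues was 98.7% for Pnpla2, 98.1% for Acsl1 and 97.8% for Acsl5, and it was lowest for Mgll at 73.9% and Dgat1 at 74.2%. Differences between genotypes within a tissue held 0.39% (Acsl5) to 6.99% (Mgll). Differences between mice of the same genotype and tissue held the rest, from 0.84% for Pnpla2 to 21.2% for Dgat1.

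**Figure D1:**
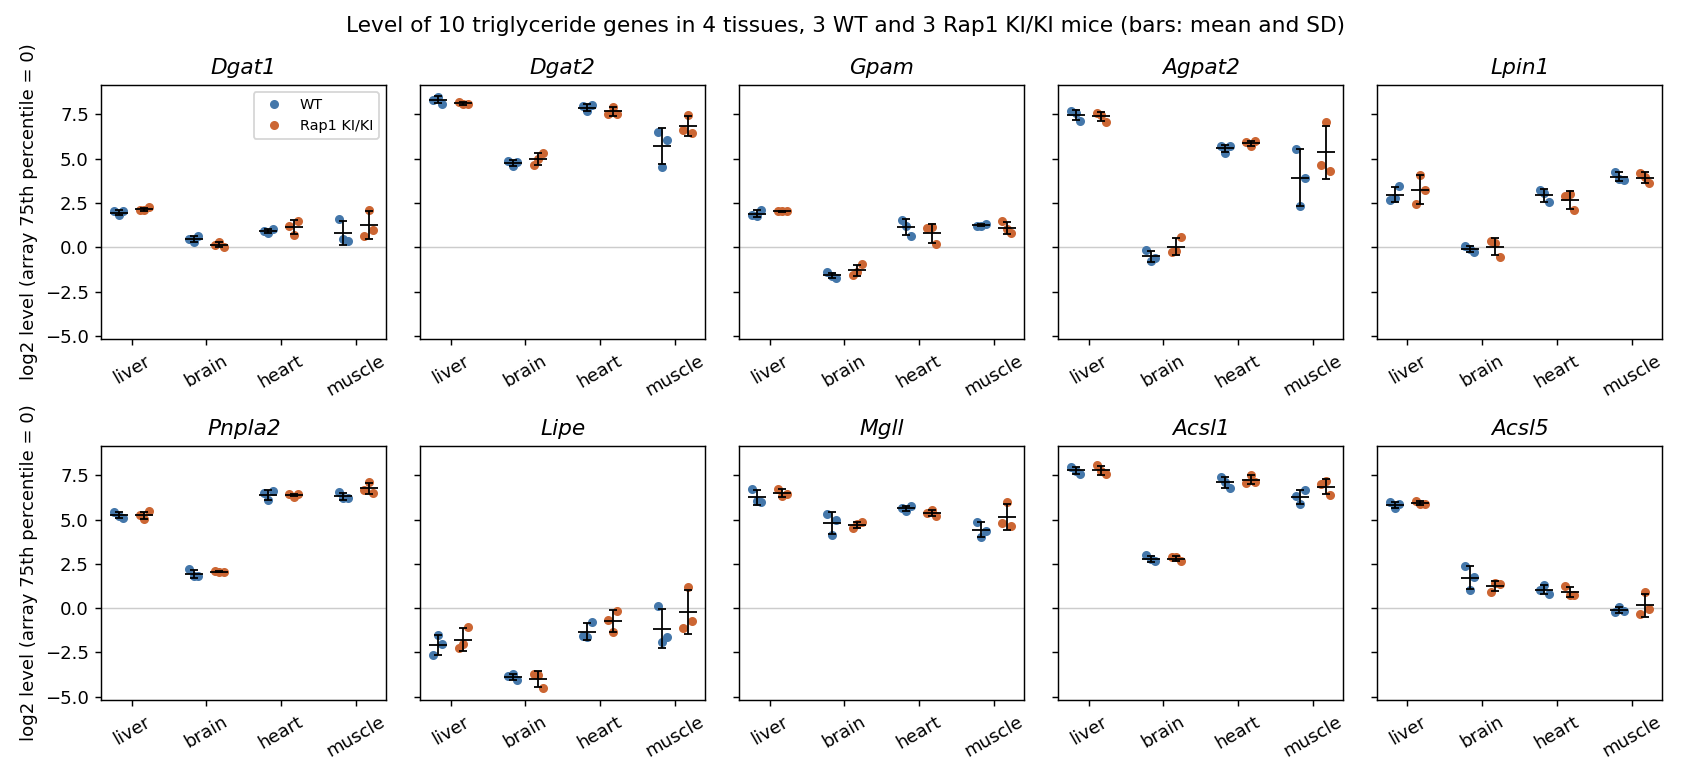
Log2 level of each gene (vertical axis, 0 is the 75th percentile of the array) in the 4 tissues, with 1 point per mouse, blue for WT and orange for Rap1 KI/KI, and bars for the mean and SD of 3 mice. The spread between tissues exceeds that between genotypes, and the muscle points of Agpat2, Lipe and Dgat2 are the most scattered.

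The brain had the lowest mean level for 9 of the 10 genes, all but Acsl5, although Mgll was lowest in muscle instead with normexp, quantile normalization or the z-scores of the authors. All 10 genes were higher in the liver than in the brain in a limma fit of the 24 arrays (n = 6 mice a tissue, Benjamini-Hochberg adjustment over 42463 probes), where 79% of all probes tested passed the threshold of an adjusted p under 0.05. At that background, the number of genes called says little about the pathway, and the sizes are what the data give. The median log2 difference of the 10 genes, liver minus brain, was 3.31 and that of all probes tested 0.35.

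Among the synthesis genes, Agpat2 had the widest span. Its log2 level was 7.43 ± 0.26 in the liver, 5.74 ± 0.23 in the heart, 4.65 ± 1.59 in muscle and -0.23 ± 0.47 in the brain (mean ± SD, n = 6 mice of both genotypes). The liver exceeded the brain 203-fold (log2 difference 7.66, SE 0.44, adjusted p 5.26e-12) and the heart 3.23-fold (adjusted p 0.00238), the latter lost with slide as a block (1.70, adjusted p 0.128). The step from heart to muscle missed the threshold (log2 difference 1.09, SE 0.44, adjusted p 0.0538), with muscle levels from 2.35 to 7.08 around heart levels of 5.35 to 5.99. This step passed the threshold under 4 of the other settings of filter, scaling or probe, and it passed with WT1 (1.46, adjusted p 0.0157), KI2 (1.56, adjusted p 0.00895) or the heart arrays of KI1 and KI3 and the muscle arrays of WT1 and KI2 (1.84, adjusted p 5.40e-04) left out.

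Dgat2 and Dgat1 catalyse the same last step and had different tissue profiles. Dgat2 was highest in the liver (8.22 ± 0.17) and heart (7.78 ± 0.23), whose difference did not pass the threshold (0.44, SE 0.25, adjusted p 0.135). It was lower in muscle (6.28 ± 0.96) and lowest in the brain (4.87 ± 0.26), 10.2-fold below the liver. Its brain minus muscle difference missed the threshold with quantile normalization (-0.50, adjusted p 0.0731) and in WT arrays alone (-0.95, adjusted p 0.0583). Dgat1 spanned only 3.35-fold. It was 2.06 ± 0.15 in the liver, 1.02 ± 0.28 in the heart and 1.02 ± 0.70 in muscle, and heart and muscle differed by 0.0030 (SE 0.23, adjusted p 0.994). Its level in the brain, 0.31 ± 0.22, was 1.64-fold below the heart (adjusted p 0.0113). Without KI3 this difference of brain minus heart was -0.59 (adjusted p 0.0699), and without WT1 that of brain minus muscle was -0.51 (adjusted p 0.0722), neither of them past the threshold. Both were also lost in the z-scores of the authors (adjusted p 0.0605 and 0.0809) and with slide as a block (adjusted p 0.0861 and 0.533). In WT arrays alone, brain minus heart was -0.44 (adjusted p 0.233) and brain minus muscle -0.33 (adjusted p 0.37). Without the heart arrays of KI1 and KI3 and the muscle arrays of WT1 and KI2, brain minus muscle was -0.29. No test compared the profiles of the 2 genes with each other.

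Gpam, the enzyme of the committed step, was 1.96 ± 0.15 in the liver, 1.17 ± 0.23 in muscle, 0.95 ± 0.48 in the heart and -1.45 ± 0.27 in the brain. The liver was 1.73-fold above muscle (adjusted p 9.65e-04), muscle and heart did not differ beyond their spread (0.22, SE 0.19, adjusted p 0.371), and the heart was 5.29-fold above the brain. The liver minus muscle difference of Gpam was lost with the mean of its probes (0.34, adjusted p 0.0839) and with slide as a block (0.03, adjusted p 0.96), while heart minus muscle then passed with slide as a block (-0.78, adjusted p 0.00645). Lpin1, whose product is also a transcriptional coactivator, was highest in muscle, at 3.96 ± 0.24. It was 3.12 ± 0.61 in the liver and 2.80 ± 0.42 in the heart, which did not differ beyond their spread (0.31, SE 0.26, adjusted p 0.297), and -0.04 ± 0.33 in the brain. Muscle exceeded the liver 1.79-fold (adjusted p 0.00697) and the brain 16.0-fold. The liver minus muscle difference of Lpin1 missed the threshold without WT1 (-0.69, adjusted p 0.0552) or KI1 (-0.57, adjusted p 0.0633).

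Among the lipolysis genes, Pnpla2 and Lipe were highest in muscle and Mgll in the liver. Pnpla2 was 6.54 ± 0.34 in muscle and 6.39 ± 0.18 in the heart, which did not differ beyond their spread (0.15, SE 0.14, adjusted p 0.412). Both were above the liver (5.25 ± 0.17), the heart 2.20-fold (adjusted p 6.04e-07), and the brain was lowest at 1.99 ± 0.16, 23.3-fold below muscle. Lipe had the same order, -0.70 ± 1.17 in muscle, -1.03 ± 0.59 in the heart, -1.93 ± 0.55 in the liver and -3.94 ± 0.32 in the brain. Muscle and heart did not differ beyond their spread (0.33, SE 0.40, adjusted p 0.53). Muscle was above the liver 2.35-fold (adjusted p 0.0103), while the heart against the liver missed the threshold (0.90, SE 0.40, adjusted p 0.0557). Without the heart arrays of KI1 and KI3 and the muscle arrays of WT1 and KI2, the liver minus muscle difference of Lipe was -0.56 (adjusted p 0.0965). It was also lost without WT1 (-0.77, adjusted p 0.11) or KI2 (-0.81, adjusted p 0.0736), with slide as a block (-0.64, adjusted p 0.616) and in WT arrays alone (-0.91, adjusted p 0.131). Liver minus heart of Lipe passed without WT2 (-1.10, adjusted p 0.0482) or KI2 (-0.99, adjusted p 0.0343), and with probes above background on every array (-0.90, adjusted p 0.0434). Mgll was highest in the liver (6.37 ± 0.32), then the heart (5.50 ± 0.20), muscle (4.78 ± 0.66) and brain (4.75 ± 0.40). Its span was 3.08-fold, the smallest of the 10 genes, and muscle and brain differed by 0.03 (SE 0.24, adjusted p 0.917). Its heart minus muscle difference passed over the 6 mice but missed the threshold without WT3 (0.67, adjusted p 0.0727), KI1 (0.64, adjusted p 0.0916) or KI3 (0.64, adjusted p 0.0758). With quantile normalization, the differences of Mgll between liver and brain (0.43, adjusted p 0.0825), liver and heart (0.29, adjusted p 0.254) and brain and heart (-0.14, adjusted p 0.592) no longer passed, while brain minus muscle turned to 0.78 (adjusted p 0.00442). With slide as a block, those of Mgll between liver and heart (0.64, adjusted p 0.281), liver and muscle (1.35, adjusted p 0.0708) and heart and muscle (0.71, adjusted p 0.134) did not pass.

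The acyl-CoA synthetases were both highest in the liver and had different profiles elsewhere. Acsl1 was 7.78 ± 0.20 in the liver, 7.17 ± 0.26 in the heart, 6.57 ± 0.47 in muscle and 2.80 ± 0.13 in the brain, and each step passed the threshold, with the liver 1.53-fold above the heart (adjusted p 0.00415), the heart 1.51-fold above muscle (adjusted p 0.00826) and muscle 13.7-fold above the brain. Without WT2 the step of Acsl1 from heart to muscle was lost (0.48, adjusted p 0.0702). With slide as a block, neither liver minus heart (0.31, adjusted p 0.463) nor heart minus muscle (0.37, adjusted p 0.264) passed, and liver minus heart did not pass in the z-scores of the authors (adjusted p 0.256). Acsl5 was 5.88 ± 0.13 in the liver and lower elsewhere, with 1.47 ± 0.53 for brain, 0.97 ± 0.25 for heart and 0.03 ± 0.45 for muscle. The liver was 30.0-fold above the heart and 57.7-fold above muscle. The brain minus heart difference missed the threshold (0.50, SE 0.22, adjusted p 0.0514) but passed with WT2 (0.73, adjusted p 0.0106) or KI1 (0.67, adjusted p 0.0228) left out and with the mouse as a replicate block (adjusted p 0.0493). It also passed with normexp (0.53, adjusted p 0.026), quantile normalization (0.66, adjusted p 0.0148), the z-scores of the authors (adjusted p 0.0135) and probes above background on every array (adjusted p 0.0405). It missed the threshold under the remaining settings. The heart was 1.93-fold above muscle (adjusted p 0.00166), which slide as a block ended (0.73, adjusted p 0.0912).

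**Figure D2:**
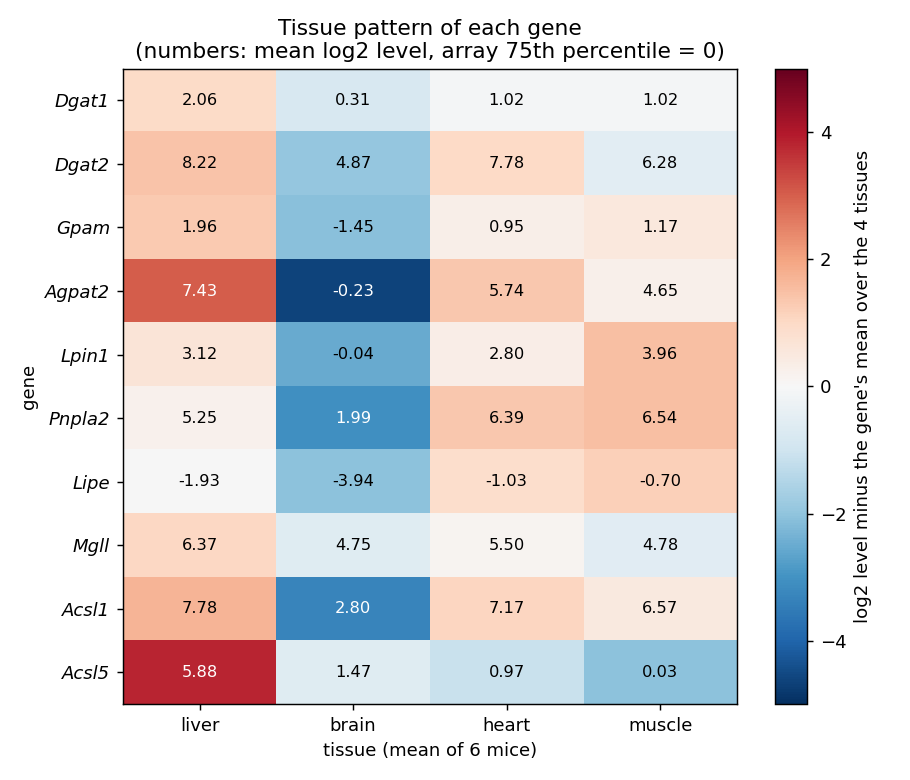
Mean log2 level of each gene in each tissue (numbers, mean of 6 mice), colored by its distance from the mean of that gene over the 4 tissues. Acsl5 has its strongest color in the liver and Agpat2 in the brain, while Pnpla2, Lpin1 and Lipe are highest in muscle. Numbers of different rows come from different probes and are not comparable.

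Counted over the other pairs of tissues, 7 genes passed between liver and heart (6 higher in the liver, 66.7% of all probes passing), and 10 between liver and muscle (7 higher in the liver, 71.1% of all probes). Between brain and heart 9 passed, all lower in the brain (67.7%), between brain and muscle 9, of which 8 were lower in the brain (70.2%), and between heart and muscle 5, of which 4 were higher in the heart (43.5%). The 4 tissues were spread over 3 slides, and brain and liver RNA was extracted with another kit than heart and muscle RNA, so tissue and kit cannot be told apart in the 4 pairs that cross these kits. Liver and brain shared a kit, as did heart and muscle. Within the slides that held a pair of tissues, the difference had the same sign as over all arrays for 10 of 10 genes for liver and brain, 10 of 10 for brain and heart, and 9 of 10 for heart and muscle.

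The wider list of triglyceride genes (38 genes, among them other isoforms of these enzymes, lipid droplet proteins and lipoprotein lipase) also had its lower levels in the brain. In the comparison of liver and brain, 28 passed as higher in the liver and 5 as higher in the brain, with a median log2 difference of 2.10, where 45.6% of all probes passed as higher in the liver and 33.4% as higher in the brain. Between heart and muscle 12 passed as higher in the heart and 11 as higher in muscle, with a median of 0.04, against 21.0% and 22.4% of all probes. Of 9 regulators of these genes, 7 were higher in the liver than in the brain and 1 lower, with a median log2 difference of 3.84. With 79% of all probes called between liver and brain, these counts say little about the lists. Ppargc1a, a coactivator of mitochondrial genes, had a mean level of 4.00 in the heart and 0.70 in the liver, whereas Mlxipl, which encodes the carbohydrate-responsive factor ChREBP, was at 6.20 in the liver and -0.58 in the brain.

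Over the 24 arrays, the genes whose centered log2 profile lay nearest to each of the 10, by the root mean square difference, were found among 18306 other genes. For Agpat2 they were Mrap (0.51), Echdc3 (0.80) and Xdh (0.90), and for Lipe Cdkn2c (0.63), Irs3 (0.64) and Aqp7 (0.71). Gpam had the closest neighbor, Dram2 (0.22), and Mkln1 lay at 0.30. The nearest to Dgat1 were Ormdl3 (0.32), Pgc and Pgd (both 0.34), and to Dgat2 Dhrs3 (0.41), Cr1l (0.46) and Arhgap29 (0.49). Lpin1 was nearest to Znrd1as (0.40), Apba3 and Npepl1 (both 0.41), Pnpla2 to Macrod1 (0.45), Stat5a (0.46) and Syngr2 (0.47), and Mgll to Actn4 (0.31), Tnks1bp1 (0.33) and Npc2 (0.35). Acsl1 had Chpt1 (0.36), Mavs and Etfa (both 0.41), and Acsl5 had Tmem97 (0.36), Tmem254c (0.41) and Sdr42e1 (0.42). None of the 10 genes was among the 3 nearest of another.

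The question for the Rap1 allele was whether these genes differ between Rap1 KI/KI and WT mice in any tissue. None of the 10 genes passed the adjusted threshold in any tissue, and neither did any other probe on the array (limma within each tissue, 3 against 3 mice, Benjamini-Hochberg adjustment over all tested probes). The number of probes tested was 35240 (liver), 37836 (brain), 34848 (heart) and 32382 (muscle), and 0% were called in each. An unadjusted p under 0.05 was reached by 2.13% of the liver probes, 2.62% of the brain probes, 7.51% of the heart probes and 2.48% of the muscle probes, and by none of the 10 representative probes. Among the 10 genes the lowest unadjusted p was 0.323 (liver), 0.107 (brain), 0.159 (heart) and 0.0708 (muscle). An exact permutation test of 3 against 3 mice cannot go below p = 0.1.

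The half-widths of the intervals give the precision of the differences, and the far end of an interval is the largest size it includes. On the log2 scale, the 95% interval reached a median of 0.50 to either side of the estimate over the 10 genes for liver, 0.60 for brain, 0.59 for heart and 0.88 for muscle. The widest in muscle reached 2.28 to either side, for Agpat2, and ran from -0.86 to 3.70. The median log2 difference of the 10 genes, Rap1 KI/KI minus WT, was 0.12 for liver, 0.06 for brain, -0.07 for heart and 0.51 for muscle, where the median of all tested probes was -0.07. In muscle 8 of the 10 genes had the higher mean in Rap1 KI/KI mice, against 7 in the liver, 6 in the brain and 4 in the heart.

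**Figure D3:**
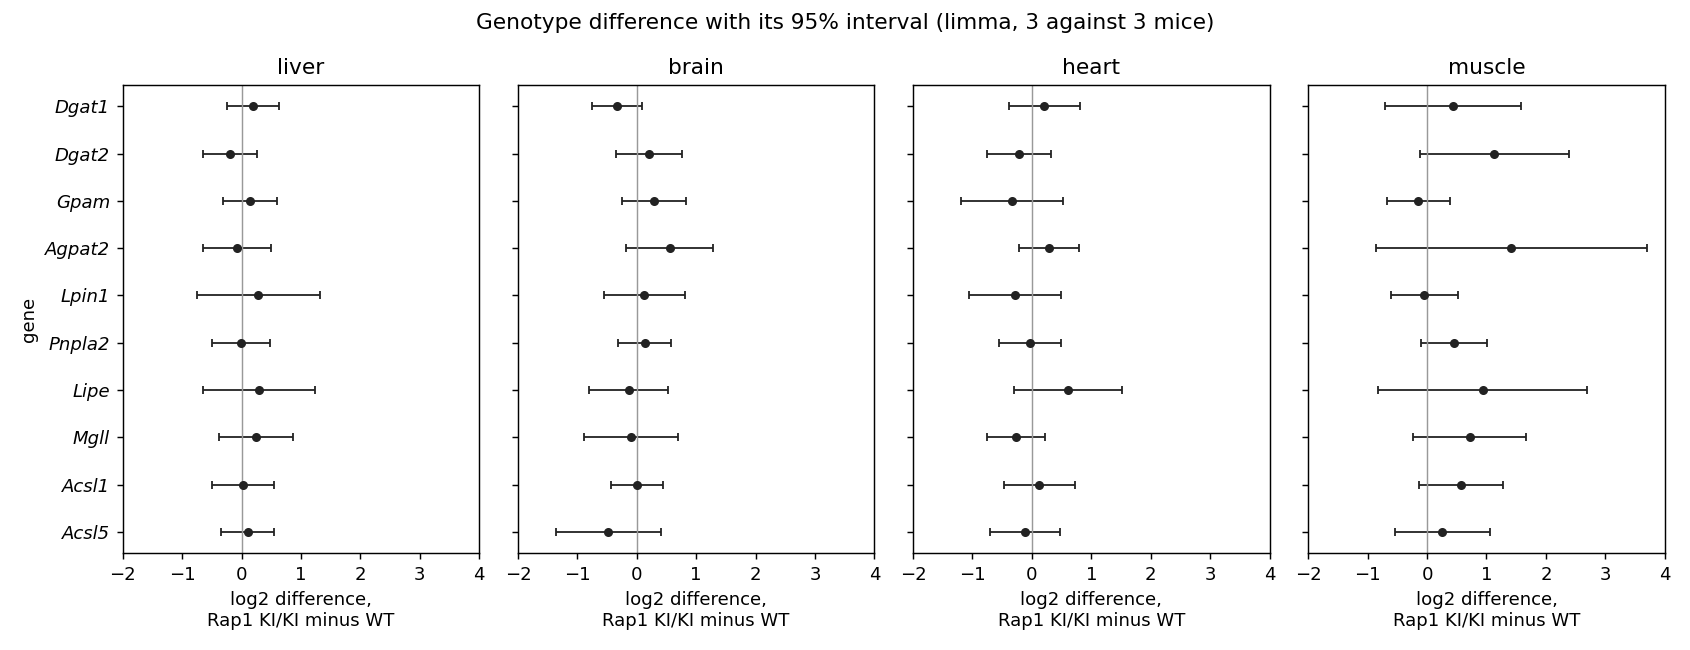
Log2 difference of each gene, Rap1 KI/KI minus WT, with its 95% interval from limma (3 against 3 mice), in the 4 tissues. All intervals include 0, and those in muscle are the widest, with Agpat2 at 1.42 and Dgat2 at 1.13.

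Muscle held the largest differences and also the largest spread between mice. The log2 level of Agpat2 in muscle was 5.54, 2.35 and 3.91 in WT1, WT2 and WT3 and 4.66, 7.08 and 4.33 in KI1, KI2 and KI3. The groups overlapped, with WT1 above KI1 and KI3, and the difference was 1.42 (SE 0.97, 95% interval -0.86 to 3.70, adjusted p 0.939). A second Agpat2 probe gave 1.25 (SE 0.84).

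Dgat2 in muscle was 6.51, 4.56 and 6.07 in the WT mice and 6.61, 7.47 and 6.45 in the Rap1 KI/KI mice. KI2 was again highest and WT2 lowest, and only WT1 reached into the Rap1 KI/KI range. The difference was 1.13 (SE 0.53, 95% interval -0.12 to 2.38, p 0.0708, adjusted p 0.939), a 2.19-fold higher mean in Rap1 KI/KI mice. Dgat2 also had the lowest p of the 10 genes for a genotype difference that varies by tissue (p 0.0521, adjusted p 1), where 0% of the 42463 probes passed after adjustment and 2.93% had an unadjusted p under 0.05.

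The muscle level of Lipe was 0.10, -1.93 and -1.66 in the WT mice and -1.15, 1.20 and -0.73 in the Rap1 KI/KI mice. KI2 was highest and WT1 second, and the groups overlapped (difference 0.94, SE 0.74, adjusted p 0.939). Mgll in muscle was 4.86, 4.02 and 4.37 in the WT mice and 4.80, 5.97 and 4.64 in the Rap1 KI/KI mice (difference 0.72, SE 0.40, adjusted p 0.939), and 2 of its other probes gave 0.82 and 0.69. Again KI2 stood highest and WT2 lowest.

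Acsl1 in muscle was 6.34, 5.87 and 6.66 in the WT mice and 7.02, 7.16 and 6.40 in the Rap1 KI/KI mice (difference 0.57, SE 0.30, adjusted p 0.939). Pnpla2 was 6.53, 6.20 and 6.20 in the WT muscles and 6.67, 7.12 and 6.51 in the Rap1 KI/KI muscles (difference 0.46, SE 0.23, adjusted p 0.939). In both genes a single pair of mice, WT3 above KI3 for Acsl1 and WT1 above KI3 for Pnpla2, kept the groups from separating. Lpin1, at 4.27, 3.85 and 3.83 in the WT muscles and 4.19, 3.99 and 3.61 in the Rap1 KI/KI muscles, had a difference of -0.05 (SE 0.24), and Gpam one of -0.14 (SE 0.23).

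The order of the mice in muscle was shared by much of the set. KI2 had the highest level for 8 of the 10 genes and WT2 the lowest for 6. The fat cell markers had the same extremes. Adipoq, which encodes the hormone adiponectin made by fat cells, was at 5.62, 1.99 and 3.93 in the WT muscles and 4.11, 6.56 and 4.20 in the Rap1 KI/KI muscles. The fat cell list summed to 1066, 196 and 580 in WT1, WT2 and WT3 and to 512, 1479 and 524 in KI1, KI2 and KI3, with all 8 genes higher on average in Rap1 KI/KI muscles and none called. Brown fat genes (Ucp1, Cidea, Elovl3 and Otop1) summed to 109 in KI2 against 1.20 to 12.6 in the other 5 muscles. The muscles of WT1 and KI2 had the highest fat cell sum of each genotype and were left out after seeing the data. The 24-array fit then gave 1.36 for Agpat2 (adjusted p 0.273) and 1.21 for Dgat2 (adjusted p 0.255). It gave 0.86 for Lipe, 0.53 for Mgll, 0.45 for Acsl1 and 0.39 for Pnpla2 (adjusted p 1 for the last 4), and none was called. WT2, the muscle with the lowest fat cell sum, remained in that fit with WT3 as the WT muscles. The sizes changed with single mice, most for Agpat2 and Lipe among these genes. Without KI2 alone, the differences were 0.56 for Agpat2, 0.82 for Dgat2, 0.22 for Lipe, 0.31 for Mgll, 0.42 for Acsl1 and 0.28 for Pnpla2. Without WT2 alone, they were 0.63 for Agpat2, 0.55 for Dgat2, 0.55 for Lipe, 0.52 for Mgll, 0.36 for Acsl1 and 0.40 for Pnpla2. Without WT1 alone, Agpat2 was at 2.22, Lipe at 1.57 and Dgat2 at 1.52, and without KI3 alone Acsl1 was at 0.80. The part of fat cells in the muscle differences was not tested.

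**Figure D4:**
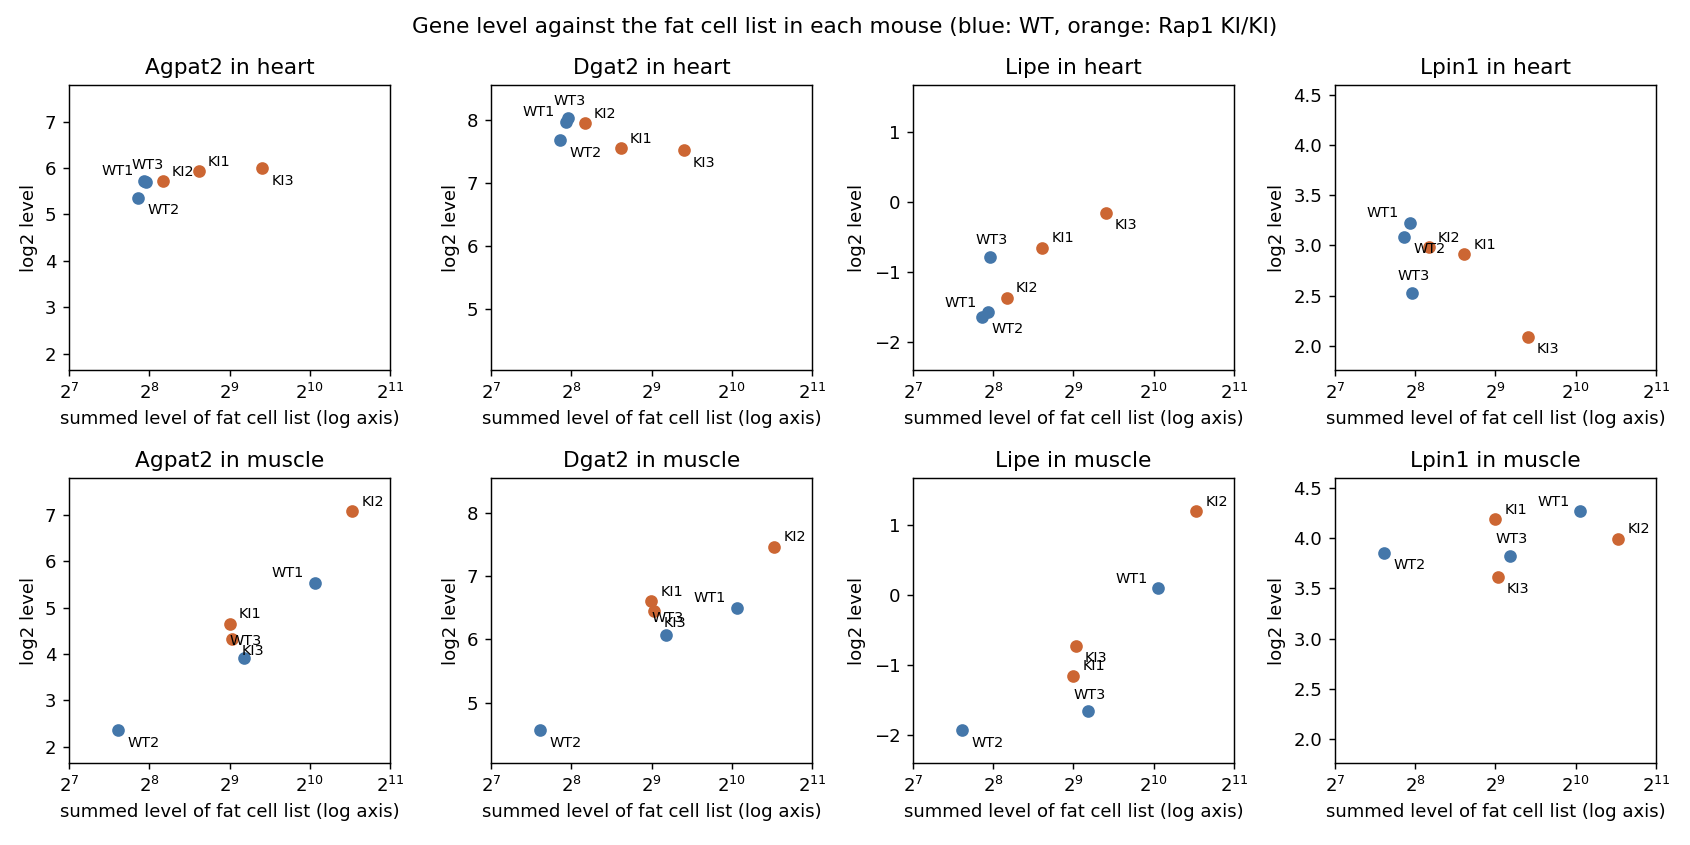
Log2 level of Agpat2, Dgat2, Lipe and Lpin1 (vertical axes) against the summed level of the 8 fat cell genes (horizontal log axis) in the hearts and muscles of the 6 mice, blue for WT and orange for Rap1 KI/KI. In the hearts Fabp4 weighs most in this sum. The hearts of KI1 and KI3 have the highest sums, with the highest Agpat2 and Lipe levels and the lowest Dgat2 levels. In muscle KI2 is highest and WT2 lowest for Agpat2, Dgat2 and Lipe on both axes, while Lpin1 stays between 3.61 and 4.27.

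In the heart, where 0% of probes were called and 14.7% had no overlap between the levels of Rap1 KI/KI and WT mice, none of the 10 genes separated the genotypes, nor did any in muscle (6.45% of all probes). Lipe had the largest difference. It was -1.58, -1.64 and -0.79 in the WT hearts and -0.66, -1.37 and -0.16 in the Rap1 KI/KI hearts (difference 0.61, SE 0.38, adjusted p 0.688). KI3 and KI1 were highest, the hearts with the highest fat cell sums, and in the 24-array fit without these 2 hearts the difference was -0.03. KI2 is then the lone Rap1 KI/KI heart, assumed to vary like the other groups, and the part of fat cells was not tested. Brown fat genes summed to 107 and 140 in the hearts of KI1 and KI3 against 38.7 to 49.4 in the other 4. Agpat2 in the heart was 5.73, 5.35 and 5.70 in the WT mice and 5.94, 5.72 and 5.99 in the Rap1 KI/KI mice (difference 0.29, SE 0.21). Of the fat cell genes, Adipoq, Plin1, Cidec, Cfd and Retn had larger differences than Lipe, whereas Fabp4 (0.19) and Pparg (0.54) did not. Adipoq was at -4.23, 0.72 and -0.15 in the WT hearts and 4.05, 0.42 and 4.86 in the Rap1 KI/KI hearts. Gpam (-0.34), Lpin1 (-0.29), Mgll (-0.27) and Dgat2 (-0.22) had lower means in the Rap1 KI/KI hearts. A dim Mgll probe, annotated to another transcript, was well above background in all 3 Rap1 KI/KI hearts and in no WT heart, at least 1.34-fold higher (adjusted p 0.646). It passed the filter on dim probes only through those 3 hearts, so its test supports nothing. The other 3 Mgll probes had the lower mean in Rap1 KI/KI hearts.

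In the brain and liver the largest differences of the 10 genes were smaller than the largest in muscle. Dgat1 was the only 1 of the 10 genes that separated the genotypes in either tissue, where 7.74% of all probes did so in the brain and 5.85% in the liver, and it did so in opposite directions. In the brain Dgat1 was 0.49, 0.32 and 0.63 in the WT mice and 0.14, 0.28 and 0.02 in the Rap1 KI/KI mice (difference -0.33, SE 0.18, p 0.107, adjusted p 1). In the liver it was 2.03, 1.80 and 2.05 in the WT mice and 2.12, 2.09 and 2.26 in the Rap1 KI/KI mice (difference 0.20, SE 0.19, p 0.323, adjusted p 1).

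The largest difference in the brain was that of Agpat2, at -0.15, -0.78 and -0.60 in the WT mice and -0.26, -0.20 and 0.58 in the Rap1 KI/KI mice (difference 0.55, SE 0.30, adjusted p 1). Without KI3 the difference was 0.28, and with any other mouse left out it ran from 0.42 to 0.73. The brain of KI3 also had the highest sum of macrophage markers (Cd68, Adgre1, Csf1r and Lyz2), 73.6 against 29.6 to 36.4 in the other 5 brains. The part of these cells was not tested. Acsl5 in the brain was 2.35, 1.03 and 1.77 in the WT mice and 0.92, 1.44 and 1.35 in the Rap1 KI/KI mice (difference -0.48, SE 0.37). Within slides, the genotype difference had the sign of the pooled one for 9 of 10 genes on the slide with 4 brain arrays, but for 4 of 10 on the slide with WT1 and KI1, the 5-month-old pair. In the heart the counts were 9 and 10 of 10. In the liver no gene differed by more than 0.29, and Dgat2 was 8.34, 8.51 and 8.12 in the WT mice and 8.19, 8.10 and 8.08 in the Rap1 KI/KI mice (difference -0.20, SE 0.19).

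Of the wider list of 38 genes none was called in any tissue. An unadjusted p under 0.05 was reached by 0 of 37 liver, 2 of 36 brain, 3 of 37 heart and 3 of 38 muscle probes tested, against 2.13%, 2.62%, 7.51% and 2.48% of all probes. All 8 had the higher mean in Rap1 KI/KI mice, and among all heart probes with such a p 1775 were higher and 842 lower. For muscle these numbers were 465 and 337, and for brain 419 and 573. In muscle these were Plin5, a lipid droplet protein of oxidative tissues, at 2.26, 3.17 and 4.20 in the WT mice and 5.21, 4.09 and 4.93 in the Rap1 KI/KI mice (difference 1.53, SE 0.52, adjusted p 0.939), Gk, which encodes glycerol kinase (1.07, SE 0.36), and the fatty acid transporter Cd36 (0.83, SE 0.35). Plin5 was highest in KI1 and KI3. Neutrophil genes (S100a8, S100a9, Ngp, Camp and Elane) summed to 90.2 and 13.3 in these 2 muscles against 1.52 to 3.70 in the other 4, and their part was not tested. In the heart they were Mogat1 (1.74, SE 0.63), Plin1 (3.82, SE 1.44) and Cidec (4.08, SE 1.58), the latter pair members of the fat cell list, and KI1 and KI3, whose hearts also had the highest fat cell and brown fat sums, were highest for all of them. In the brain they were Cidea (0.91, SE 0.27) and Mogat2, for which no difference is given because it was well above background in only 3 of the 6 brains. Among the 9 regulators only Nr1h3, which encodes the liver X receptor alpha, had an unadjusted p under 0.05, in the brain (difference 0.51, SE 0.17, adjusted p 1). All 3 Rap1 KI/KI brains were above all WT brains for Nr1h3, where 7.74% of all brain probes separated the genotypes in either direction.

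Further probes of the same genes largely followed the representative ones between tissues. The second probes of Acsl1, Agpat2, Gpam and Lpin1 were all lowest in the brain, and those of Acsl1 and Agpat2 were highest in the liver, as were the representative ones. The second Lpin1 probe was highest in muscle (-0.83) and well above background in 4 of 6 brains. The second Gpam probe was highest in muscle (-0.43) rather than the liver (-0.55). All 4 Mgll probes were highest in the liver. The third by level, annotated to another transcript, was lowest in muscle (0.28) and higher in the brain (1.69), whereas both brighter probes had slightly lower means in the brain than in muscle. The dimmest was well above background in 1 of 6 brains and 1 of 6 muscles, so its order there is not given.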

How the data were processed

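Total RNA of 4 tissues from 6 male mice was labelled with Cy3 and hybridized to 24 Agilent arrays. The authors deposited intensity values as processed signals, background-subtracted and detrended by Feature Extraction 12.0.3.1 without scaling between arrays. As score values the authors also gave z-scores of log10 signals within each array (own z-scores differed by at most 0.005, and column medians ran from -0.27 to -0.11), used only as an alternative. Array procedures and analysis are given in the paper by a citation, which was not used here.

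Control spots and spots flagged as outliers were left out, spots of a probe were averaged, and each array was centered on its 75th percentile in log2. Accessions were matched to RefSeq symbols (GRCm38.p6), which named 28325 of 55681 probes. Probes well above background on at least 3 arrays of a tissue were tested with limma 3.58.1 in R 4.3.3 (with statmod 1.5.0), within each tissue for genotype and over 24 arrays for tissues and the interaction, with two-sided tests and Benjamini-Hochberg adjustment over all tested probes. For the bound on the dim Mgll probe, each WT heart was set at its lowest level well above background or its own level, whichever was higher. The procedures were tested on simulated data. Named genes were the 10 genes in every tissue, at most 5 genes of each other list by smallest p, and the 3 nearest profiles, of which 1 is not reported here. Replicates are separate mice. The number of arrays limits the precision.

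The genes and lists were chosen with earlier results of these data known. Because the same 6 mice gave all tissues, the mouse was tried as a replicate block. Deviations of tissues of the same mouse correlated at -0.22 to 0.26, with a consensus correlation of 0.026. Other alternatives were normexp (offset 50, on median signals, because the scanner files used here carry no mean signal column), quantile normalization, other filters and probes, age and slide blocks, trend and robust estimation, and each mouse left out.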

Additional observations from a re-analysis of the deposited data

Results flagged for a closer look

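Dgat1, 1 of the enzymes of the last step of triglyceride synthesis, differed between the genotypes in opposite directions in 2 tissues, with neither difference called. Of all probes, 5.85% in the liver and 7.74% in the brain had no overlap between the genotypes, in either direction, so such a separation is not rare. For Dgat1, all 3 Rap1 KI/KI mice were above all 3 WT mice in the liver (log2 difference 0.20). In the brain all 3 Rap1 KI/KI mice were below the WT mice (-0.33). Neither difference passed limma's test after adjustment (adjusted p 1 in both). The difference between these 2 tissues was not tested by itself, and the interaction over all 4 tissues gave an F of 0.97 (p 0.428, adjusted p 1). Groups of 3 mice were not searched for outliers.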

How the results depend on the processing

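None of the 10 genes was called for genotype or interaction under any alternative run. Leaving out each mouse gave 10 genes called between liver and brain, 7 to 8 between liver and heart, 8 to 10 between liver and muscle, 8 to 10 between brain and heart, 8 to 9 between brain and muscle and 4 to 6 between heart and muscle. With slide as a block, which nearly coincides with tissue, 4 genes were called between liver and heart, 5 between liver and muscle and 3 between heart and muscle, and in Rap1 KI/KI arrays alone 2 between heart and muscle. The cause was not tested. The mouse as replicate block changed 1 call, Acsl5 between brain and heart (0.50, adjusted p 0.0493). Of 1020 alternative tissue values, 934 kept direction and call, 47 lost the call, 18 gained it and 21 changed sign, and 49 of 720 genotype values changed sign. Of the values that changed sign, 1 was called, Mgll between brain and muscle with quantile normalization (adjusted p 0.00442). The median of all probes moved from 0.35 to 0.18 between liver and brain, from -0.27 to -0.16 between brain and heart and from -0.30 to -0.16 between brain and muscle when quantile normalization replaced the 75th percentile. Slide as a block could be fitted for genotype in brain and heart only.

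The genotype differences that changed sign were as follows. With normexp, in the liver Pnpla2 0.013 and in the brain Acsl1 -0.060. With quantile normalization, in the liver Dgat2 0.011, Agpat2 0.043 and Pnpla2 0.061, in the brain Acsl1 -0.019, in the heart Pnpla2 0.19 and in muscle Lpin1 0.071. In the authors' z-scores, in the liver Acsl1 -0.02 and in the heart Pnpla2 0.0033. As the mean of all probes of the gene, in the liver Gpam -0.097 and Agpat2 0.026, in the brain Acsl1 -0.11 and in the heart Mgll 0.18 and Acsl1 -0.069. In the 24-array fit without the hearts of KI1 and KI3, in the heart Dgat1 -0.20, Dgat2 0.057, Lpin1 0.034 and Lipe -0.033. In the 24-array fit without the muscles of WT1 and KI2 (chosen after seeing the data), in muscle Lpin1 0.063 and Acsl5 -0.18. With each mouse left out in turn, they ranged in the liver Agpat2 -0.25 to 0.071, Pnpla2 -0.11 to 0.095, Lipe -0.068 to 0.55, Acsl1 -0.13 to 0.13 and Lpin1 -0.14 to 0.69, in the brain Mgll -0.43 to 0.15, Acsl1 -0.071 to 0.093, Lpin1 -0.039 to 0.40 and Lipe -0.29 to 0.13, in the heart Pnpla2 -0.18 to 0.092 and Acsl1 -0.033 to 0.27 and in muscle Lpin1 -0.18 to 0.11, Dgat1 -0.0086 to 0.83, Acsl5 -0.12 to 0.51 and Gpam -0.33 to 0.011.

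Tissue differences changed sign as follows. With normexp, between brain and muscle Mgll 0.035. With quantile normalization, between liver and heart Lpin1 -0.024, between brain and muscle Mgll 0.78 and between heart and muscle Pnpla2 0.087. In the authors' z-scores, between brain and muscle Mgll 0.037. With slide as a block, between liver and heart Lpin1 -0.32 and between heart and muscle Lipe 0.22. As the mean of all probes of the gene, between brain and muscle Mgll 0.10. In WT arrays alone, between brain and muscle Mgll 0.38 and between heart and muscle Pnpla2 0.091. In Rap1 KI/KI arrays alone, between heart and muscle Dgat1 -0.11. Without those hearts and muscles (chosen after seeing the data), between brain and muscle Mgll 0.29 and between heart and muscle Lipe 0.018. With each mouse left out in turn, they ranged between heart and muscle Lipe -0.60 to 0.18 and Dgat1 -0.17 to 0.33 and between brain and muscle Mgll -0.19 to 0.17.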
